A study of Rattus norvegicus with 8 samples.

Results

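The genes described are the laminin chains and the integrin subunits of the rat sciatic nerve, taken by name from the deposited table of raw counts: 37 of its 22601 gene names, of which 11 encode laminin chains and 26 encode integrin subunits. Names of integrin-binding proteins such as Itgb1bp1 were not taken. RNA with a polyA tail was sequenced from rat sciatic nerve on day 15 after either of 2 operations. In chronic constriction injury (CCI), the nerve is tied loosely with ligatures to model neuropathic pain, and in the sham group the operation was done without them, with 4 libraries in each group. The sources used here give no strain, sex or age and do not say whether animals were pooled or each library had its own animal. A p-value therefore reflects how far these libraries spread, which may in part be technical. The samples were pieces of whole nerve, in which a smaller number of cells of a type and less RNA per cell cannot be told apart.

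Laminins are the trimers from which basement membranes are built: an alpha, a beta and a gamma chain coil together, and the alpha chain carries the globular end that cells bind. Each Schwann cell with its axon lies in a basement membrane rich in the trimer of the Lama2, Lamb1 and Lamc1 products, and loss of Lama2 causes a muscular dystrophy with a dysmyelinating neuropathy in mice and humans. Integrins are pairs of an alpha and a beta subunit that span the cell membrane. Those with the products of Itga3, Itga6, Itga7 and Itgb4 bind laminin, others bind collagen, fibronectin or other ligands with an RGD sequence, and those with the Itgb2 product are restricted to leukocytes.

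Library totals in the deposited counts ran from 42541217 to 54559292. A count of 0 allows up to 3 counts by counting error, which corresponded to 0.0518 to 0.0771 CPM. CPM here are counts relative to library size after TMM scaling, which corrects for a changed make-up of the library, and FPKM are the authors' values per kilobase of gene, used where the levels of different genes are compared. All 12 markers of the myelinating Schwann cell were detected in both groups, and their summed level was 95588 to 112366 CPM in sham and 7151 to 10969.5 CPM in CCI. Summed markers of skeletal muscle lay at 29.0, 798, 33.8 and 26.8 CPM in sham 1 to 4. In CCI 1 to 4 they lay at 16.3, 3341, 648 and 391 CPM. Of 13 tested muscle markers, 1 was called higher and 0 lower, beside 36.2% higher and 32.2% lower of all tested genes. The part of muscle RNA in the levels below was not tested. All 37 genes passed the filter on low counts.

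Lama2, Lamb2, Itga6 and Itgb4, the most abundant laminin alpha, laminin beta, integrin alpha and integrin beta transcripts of sham nerve per length, were 2.94- to 8.22-fold lower in CCI. The leukocyte integrin genes Itgb2, Itgal, Itgam, Itgax and Itgad were 7.19- to 19.7-fold higher, and the fibronectin receptor gene Itga5 and the alpha4 gene Itga4 were 3.56- and 3.38-fold higher. The transcripts of Lama5, Itgb1 and Itgb5 did not pass the test here, but were called higher with library totals as the only scaling or in FPKM. Of the 37 genes, 15 were higher and 11 lower at an edgeR adjusted p under 0.05. This share of 70.3% stands beside 68.4% of all 15763 tested genes (36.2% higher and 32.2% lower), so the number of calls is near the background, and what follows rests on sizes and directions. Calls of at least 2-fold were made for 12 that were higher and 4 that were lower. Over all tested genes 30.3% had such a call, 16.4% higher and 13.9% lower. CPM values of the CCI and sham libraries did not overlap for 23 of the 37, against 64.8% of all tested genes.

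**Figure D1:**
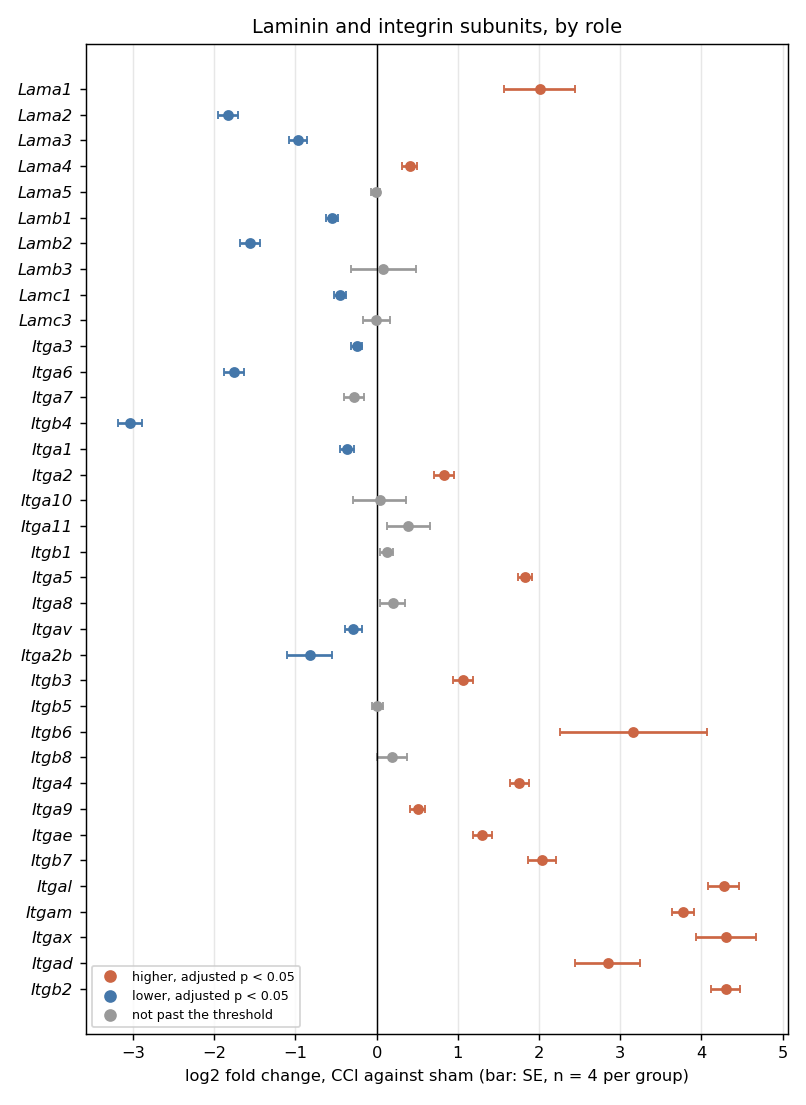
Log2 fold change of laminin and integrin genes (x axis, CCI against sham, edgeR with TMM scaling, bars are SE, n = 4 per group), ordered by role. Itgb4 stands lowest at -3.04 and the leukocyte integrin genes Itgb2, Itgax, Itgal, Itgam and Itgad stand between 2.85 and 4.30.

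Among the laminin alpha chains, Lama2 was lower and Lama4 higher in the injured nerve, so that their order in FPKM was exchanged. Lama2, the chain of the Schwann cell and muscle basement membrane, was at 1516, 1617, 1601 and 1420.3 CPM in sham 1 to 4 and at 379, 375, 542 and 440.4 CPM in CCI 1 to 4. The groups lay far apart, and CCI 3 was the highest of the injured nerves. It was 3.54-fold lower in CCI (log2 fold change -1.83 with SE 0.12, adjusted p = 2.83e-07 in edgeR). Lama4, the chain of blood vessels and of immature nerve, had 457, 418, 409 and 528 CPM in the sham nerves and 580.2, 607, 639 and 576 CPM in the CCI nerves, without overlap (log2 fold change 0.41 with SE 0.09, adjusted p = 0.00194 in edgeR). In FPKM, Lama2 went from 147 ± 8.65 to 48.5 ± 9.505 and Lama4 from 69.2 ± 8.64 to 107 ± 6.54 (SD, n = 4 per group).

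The stretches before and just after the annotated starts of these 2 genes are shown because the genes take the same place in the trimer and moved in opposite directions. They are RefSeq promoter windows of 250 bases before to 50 bases after the start, written 5′ to 3′ on the gene's strand.
Lama2 (GRCr8 chr1:19491896-19492195, + strand): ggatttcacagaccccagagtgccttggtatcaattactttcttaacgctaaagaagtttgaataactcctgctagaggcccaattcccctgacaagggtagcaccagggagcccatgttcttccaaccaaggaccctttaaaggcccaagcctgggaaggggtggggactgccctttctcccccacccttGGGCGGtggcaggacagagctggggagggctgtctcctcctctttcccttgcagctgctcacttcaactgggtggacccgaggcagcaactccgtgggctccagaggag
Lama4 (GRCr8 chr20:43946648-43946947, + strand): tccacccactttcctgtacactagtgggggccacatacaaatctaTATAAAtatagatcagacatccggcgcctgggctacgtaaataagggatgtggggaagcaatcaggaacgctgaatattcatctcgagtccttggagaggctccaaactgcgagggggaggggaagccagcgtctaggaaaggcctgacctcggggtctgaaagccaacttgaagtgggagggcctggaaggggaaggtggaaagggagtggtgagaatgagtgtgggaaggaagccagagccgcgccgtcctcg
Capitals mark each match, on either strand, to 4 motifs: the PU.1 core GAGGAA, the AP-1 site TGANTCA, the SP1 GC box GGGCGG and the TATA box TATAAA. None of the matches shown overlapped another. The Lama2 window held a GC box, which 33.1% of all 33469 windows of that length hold, and the Lama4 window held a TATAAA, found in 14.2% of them. That TATAAA begins 205 bases before the annotated start. Such matches describe letters in the window and show no binding.

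The other alpha chains were less abundant. Lama5, the chain of adult vessels and epithelia, was at 228, 232, 214 and 222 CPM in the sham nerves and 221, 230.0, 222 and 217 CPM in the CCI nerves, and these ranges overlapped (log2 fold change -0.01 with SE 0.06, adjusted p = 0.879 in edgeR). With libraries scaled by their totals only, its log2 fold change was 0.22 and passed (edgeR adjusted p = 0.00579; range over all alternatives 0.00232 to 0.990). Lama3, whose product is an alpha chain of epithelial basement membranes, was at 65.8, 49.8, 53.05 and 61.6 CPM in the sham nerves and 27.4, 29.5, 34.3 and 26.4 CPM in the CCI nerves. No injured library reached a sham library, and the fall was 1.96-fold (log2 fold change -0.97 with SE 0.11, adjusted p = 1.80e-05 in edgeR). Lama1, the alpha chain of the early embryo, was scarce, with 0.617, 0.212, 0.163 and 0.353 CPM in the sham nerves and 1.38, 1.71, 1.02 and 1.300 CPM in the CCI nerves. These low levels did not overlap either, and the rise was 4.03-fold (log2 fold change 2.01 with SE 0.43, adjusted p = 0.00183 in edgeR). On the log2(FPKM + 1) and log2(FPKM + 0.1) scales, which understate changes of scarce genes, the difference was 0.14 and 0.88.

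Both abundant laminin beta chains were lower in CCI, Lamb2 more than Lamb1. Lamb2, a beta chain of the neuromuscular synapse, kidney and nerve, was at 973, 1359, 1036 and 983 CPM in the sham nerves and 361, 325, 412 and 383 CPM in the CCI nerves (log2 fold change -1.56 with SE 0.12, adjusted p = 9.86e-07 in edgeR). Sham 2 stood above the other sham nerves, and every sham library stood above every CCI library. Lamb1, the most widely expressed beta chain, was at 893, 761, 810.2 and 823 CPM in the sham nerves and 568, 555, 589 and 534 CPM in the CCI nerves, again without overlap (log2 fold change -0.55 with SE 0.07, adjusted p = 4.74e-05 in edgeR). Lamb3, an epithelial beta chain, was scarce, at 0.617, 0.871, 0.325 and 0.595 CPM in the sham nerves and 0.604, 0.949, 0.469 and 0.524 CPM in the CCI nerves (log2 fold change 0.08 with SE 0.40, adjusted p = 0.863 in edgeR). Its groups overlapped throughout.

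Of the gamma chains, Lamc1, the partner in most trimers, was modestly lower. Its levels were 1335, 1242, 1221 and 1354 CPM in the sham nerves and 947, 897, 1033 and 892 CPM in the CCI nerves, with all injured libraries below all sham libraries (log2 fold change -0.45 with SE 0.08, adjusted p = 0.000325 in edgeR). Lamc3 was at 16.1, 8.85, 11.2 and 13.5 CPM in the sham nerves and 11.5, 12.4, 13.5 and 12.2 CPM in the CCI nerves. Its sham values spread around those of CCI (log2 fold change -0.0019 with SE 0.16, adjusted p = 0.992 in edgeR). In all, 2 laminin genes rose (Lama1 and Lama4), 5 fell and 4 did not pass, with a median log2 fold change of -0.01 beside 0.05 for all tested genes. The share called, 63.6%, was near the 68.4% of all tested genes. The median over all tested genes was 0.27 with library totals only, where the laminin median was 0.22.

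**Figure D2:**
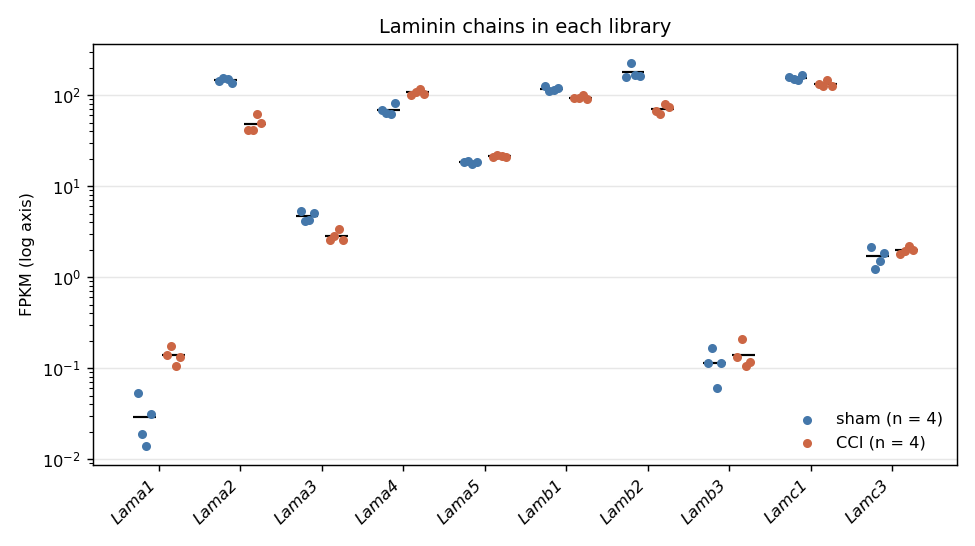
Authors' FPKM (log axis) of laminin chains in each library, sham and CCI side by side, with a black line at the mean of 4. Lama2 and Lamb2 are lower and Lama4 higher in all 4 CCI libraries than in any sham library.

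Measured per length, both the total and the make-up of the laminin alpha transcripts differed between groups. Laminin alpha FPKM summed to between 235 and 244 in sham and between 167 and 203 in CCI. Of that sum, Lama2 took 61.4% ± 3.62 in sham and 26.8% ± 2.96 in CCI, while Lama4 took 28.96% ± 3.44 in sham and 59.7% ± 2.103 in CCI (SD, n = 4 per group). Lama5 took 7.66% ± 0.218 and 11.9% ± 0.878 (SD, n = 4 per group). Among the beta chains, Lamb2 held 59.9% ± 5.05 of the summed FPKM in sham and 42.9% ± 2.29 in CCI, with nearly all of the rest in Lamb1. Lamc1 made up at least 97.7% of gamma chain FPKM in every library.

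The exchange was also expressed as a log2 ratio of FPKM within each library, which does not depend on how libraries are scaled. The Lama4 to Lama2 ratio was -1.05, -1.27, -1.29 and -0.75 in sham and 1.30, 1.37, 0.92 and 1.07 in CCI on the log2 scale, a difference of 2.25. For Lamb1 against Lamb2 the log2 ratio was -0.32, -1.03, -0.55 and -0.45 in sham and 0.46, 0.58, 0.32 and 0.29 in CCI, a difference of 1.00. The log2 ratio of Lama5 to Lama2 differed by 1.83. All 4 CCI libraries lay above all 4 sham libraries in these 3 ratios. For both ratios to Lama2 this separation follows from the FPKM of the genes themselves, which did not overlap and moved in opposite directions, so no p is given. Lamb1 and Lamb2 both fell, but in sham Lamb1 was at most 126 FPKM and Lamb2 at least 158 FPKM. In CCI Lamb1 was at least 90.1 FPKM and Lamb2 at most 80.7 FPKM. The separation of their ratio follows from these ranges as well, so no p is given for it either. Across laminins and integrins, 7 pairs of subunits were compared, with Benjamini-Hochberg adjustment over the 7.

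**Figure D3:**
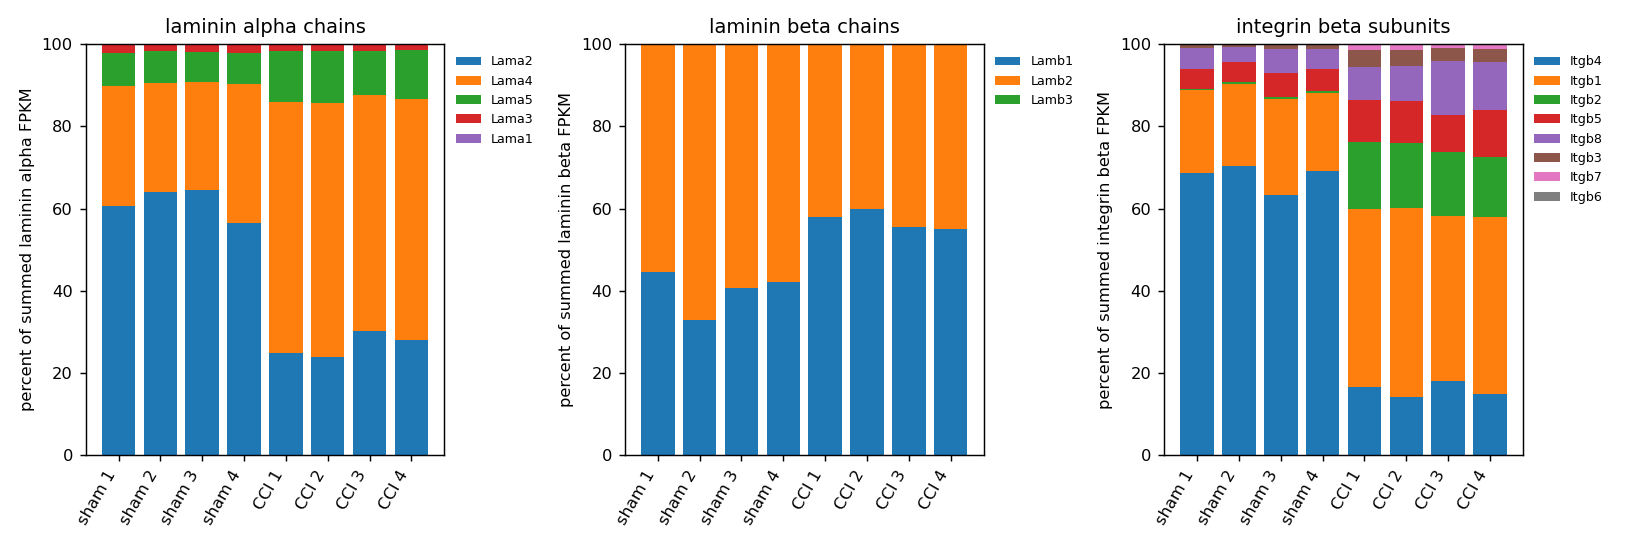
Share of each chain (percent, stacked from 0) in the summed FPKM of the laminin alpha chains, laminin beta chains and integrin beta subunits, 1 bar per library. In sham Lama2 and Itgb4 take the largest shares of their class (means of 61.4% and 67.9%), and in CCI Lama4 and Itgb1 do (59.7% and 43.2%).

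The laminin-binding integrin genes fell or did not pass. Itgb4 pairs with the Itga6 product, and in nerve this pair sits on the outer face of myelinating Schwann cells and on perineurial cells. Itgb4 was at 3876, 4438, 3155 and 3565 CPM in the sham nerves and 477, 383, 564 and 406 CPM in the CCI nerves. The groups lay far apart, and the fitted fall was 8.22-fold (log2 fold change -3.04 with SE 0.15, adjusted p = 4.09e-08 in edgeR). Itga6 was at 1998, 1590.0, 1652 and 1813 CPM in the sham nerves and 469.6, 492, 649.7 and 473 CPM in the CCI nerves. CCI 3 stood above the other injured nerves and still far below sham (log2 fold change -1.76 with SE 0.12, adjusted p = 4.26e-07 in edgeR). Itga7, an alpha subunit of muscle and Schwann cells that pairs with the Itgb1 product, was at 193, 163, 154 and 188 CPM in the sham nerves and 116, 138, 177 and 145 CPM in the CCI nerves. These ranges overlapped through CCI 3 (log2 fold change -0.27 with SE 0.12, adjusted p = 0.074 in edgeR), and without CCI 3 the gene passed (log2 fold change -0.42, edgeR adjusted p = 0.00390; range over all alternatives 0.00390 to 0.778). Itga3, a laminin receptor subunit of epithelia, had 26.1, 27.7, 25.2 and 27.8 CPM in the sham nerves and 24.2, 22.3, 22.3 and 21.3 CPM in the CCI nerves, just below sham without overlap (log2 fold change -0.25 with SE 0.07, adjusted p = 0.00973 in edgeR). Its small fall was not called with library totals only or in FPKM (log2 fold change -0.02 in each) or without CCI 2 and sham 2 (-0.22).

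In FPKM, Itgb4 was the most abundant integrin beta transcript of sham nerve, at 592 ± 89.1, above Itgb1 at 178 ± 19.01 (SD, n = 4 per group). In CCI nerve Itgb1 was at 227 ± 7.18 and Itgb4 at 84.2 ± 15.8. The log2 ratio of Itgb4 to Itgb1 was 1.78, 1.81, 1.44 and 1.87 in sham and -1.39, -1.71, -1.16 and -1.54 in CCI, so every sham library had more Itgb4 and every CCI library more Itgb1 per length. For Itga7 against Itga6 the log2 ratio went from -2.93, -2.85, -2.98 and -2.83 in sham to -1.57, -1.39, -1.43 and -1.26 in CCI. The separation of the Itgb4 to Itgb1 ratio follows from the opposite moves of these genes in FPKM, so no p is given. In sham Itga7 was at most 38.7 FPKM and Itga6 at least 241 FPKM. In CCI Itga7 was at least 27.2 FPKM and Itga6 at most 116 FPKM. The separation of the Itga7 to Itga6 ratio follows from these ranges as well, so no p is given for it either. Beside these falls, the summed markers of the Schwann cell lineage were 3449.6 to 4227 CPM in sham and 749.6 to 1225 CPM in CCI, and those of perineurial cells 797 to 1084 CPM in sham and 204 to 298 CPM in CCI. Of these markers, 5 of 6 for the lineage and all 4 tested for perineurial cells fell, beside 32.2% of all tested genes. Most of the lineage sum was S100b, and without it that sum was 917 to 1038 CPM in sham and 334 to 607 CPM in CCI. Summed markers of repair or immature Schwann cells went the other way, at 218 to 267 CPM in sham and 512 to 954 CPM in CCI. Of these 9 markers, 6 were called higher and 1 lower. The part of these cells in the falls of Itgb4, Itga6 and Lama2 was not tested.

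Receptors of laminin other than integrins, with their partners, were mostly lower. Dystroglycan, the product of Dag1, binds the laminin alpha chain at the Schwann cell surface and is linked inside the cell to utrophin, dystrophin and sarcoglycans. Of 19 tested genes of this group, 14 fell and 2 rose, with a median log2 fold change of -0.93 beside 0.05 over all tested genes. The share called was 84.2%, beside 68.4% of all tested genes (32.2% lower and 36.2% higher). Dag1 was at 2322, 1920.5, 2096 and 2055 CPM in the sham nerves and 588, 637, 846 and 644 CPM in the CCI nerves, again far apart (log2 fold change -1.63 with SE 0.12, adjusted p = 5.82e-07 in edgeR). The smallest p-values were those of Sgce, epsilon-sarcoglycan, from 131 ± 8.63 CPM in sham to 39.7 ± 2.54 CPM after CCI (log2 fold change -1.72 with SE 0.07, adjusted p = 1.19e-08 in edgeR), and of Utrn, utrophin, from 1958 ± 51.5 CPM in sham to 593 ± 70.9 CPM after CCI (log2 fold change -1.72 with SE 0.09, adjusted p = 6.23e-08 in edgeR; SD, n = 4 per group for both genes).

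Rpsa, a ribosomal protein that is also called the laminin receptor, was among those that rose. Rpsa was at 624, 701, 731 and 718 CPM in the sham nerves and 968, 879, 740.1 and 866 CPM in the CCI nerves, CCI 3 lying just above the highest sham library (log2 fold change 0.32 with SE 0.09, adjusted p = 0.0106 in edgeR). Without CCI 1, the highest library for Rpsa, 1 gene of this group was called higher in place of 2.

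**Figure D4:**
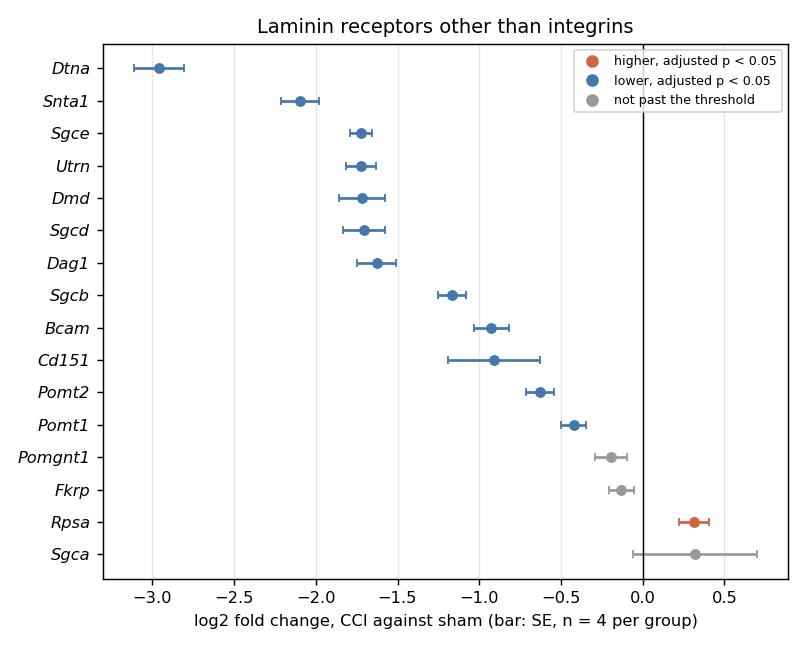
Log2 fold change (x axis, CCI against sham, bars are SE, n = 4 per group) of genes for laminin receptors other than integrins and the enzymes and partners of dystroglycan. Dtna, the dystrobrevin alpha gene, lies lowest at -2.96, and Rpsa, which was called higher, lies at 0.32.

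The other components of basement membranes went both ways. Of 20 tested genes, 8 fell and 5 rose (median log2 fold change -0.13). This share of 65% called is near the 68.4% of all tested genes, of which 32.2% were lower and 36.2% higher. Col18a1, a collagen of vessel and epithelial basement membranes, rose from 164 ± 15.4 CPM in sham to 894 ± 81.5 CPM after CCI (log2 fold change 2.45 with SE 0.10, adjusted p = 1.01e-08 in edgeR). Col4a3, a type IV collagen chain that assembles with Col4a4 and Col4a5, fell from 55.8 ± 8.495 CPM in sham to 6.75 ± 0.948 CPM after CCI (log2 fold change -3.05 with SE 0.13, adjusted p = 2.06e-08 in edgeR; SD, n = 4 per group for both genes). Col4a4 and Col4a5 fell too, by 2.83 and 1.58 on the log2 scale. The other genes that rose were Agrn, Col4a1, Nid2 and Col4a2, by 0.23 to 0.49 on the log2 scale. Nid1, which ties laminin to type IV collagen, was at 1696 ± 199.7 CPM in the sham nerves and 1457 ± 58.1 CPM in the CCI nerves and did not pass (log2 fold change -0.22 with SE 0.09, adjusted p = 0.0509 in edgeR). Hspg2, the perlecan gene, did not pass either (log2 fold change 0.06, SE 0.10). Without CCI 2, without sham 3 or without CCI 2 and sham 2, 3 genes of this group were called higher in place of 5.

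**Figure D5:**
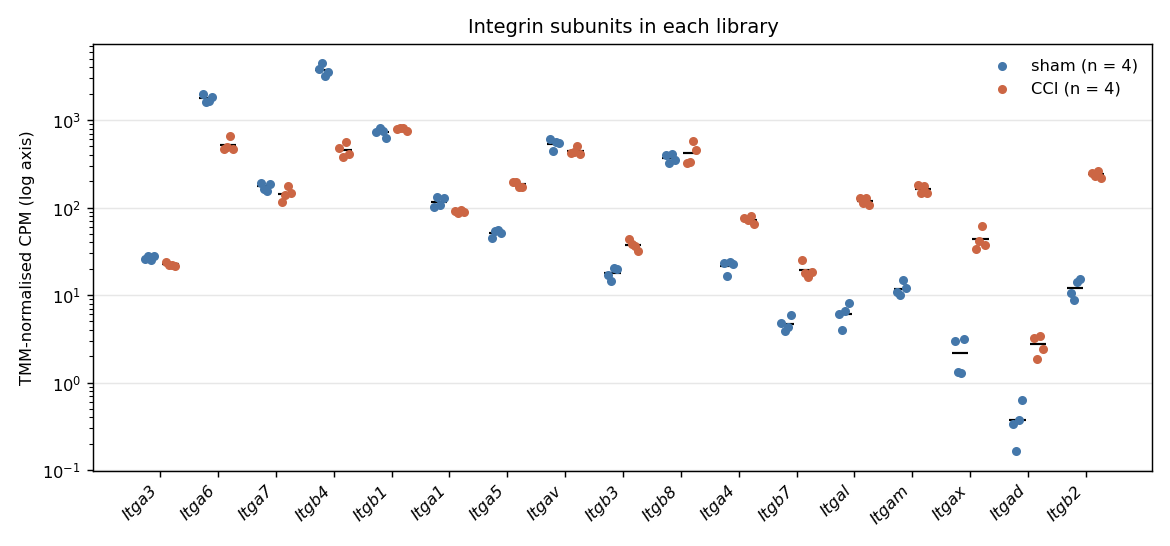
TMM-normalised CPM (log axis) of 17 integrin subunits in each library, with a black line at the mean of 4. The leukocyte subunits at the right lie above sham in all 4 CCI libraries, while Itga6 and Itgb4 lie below.

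The shared beta1 subunit gene did not pass, and of the 4 collagen receptor genes 1 rose, 1 fell and 2 did not pass. Itgb1, the partner of most laminin, collagen and fibronectin receptor subunits, was at 725, 812, 745 and 627 CPM in the sham nerves and 799.8, 801, 807 and 758 CPM in the CCI nerves (log2 fold change 0.12 with SE 0.08, adjusted p = 0.212 in edgeR). The injured libraries lay in a narrow band inside the wider sham range. With library totals only Itgb1 was called higher (log2 fold change 0.35, edgeR adjusted p = 0.00344; range over all alternatives 0.00328 to 0.521). Itga1, a collagen receptor subunit of vessels and fibroblasts, was at 100.4, 132, 106 and 127 CPM in the sham nerves and 91.1, 86.2, 94.8 and 89.6 CPM in the CCI nerves, without overlap (log2 fold change -0.36 with SE 0.09, adjusted p = 0.0044 in edgeR). It was not called with library totals only (log2 fold change -0.14) or in FPKM. Itga2, a collagen receptor subunit of platelets and epithelia, was at 12.8, 9.75, 11.8 and 13.2 CPM in the sham nerves and 23.6, 23.2, 19.5 and 18.4 CPM in the CCI nerves, a rise of 1.78-fold without overlap (log2 fold change 0.84 with SE 0.12, adjusted p = 0.000118 in edgeR). Itga11, a collagen receptor subunit of fibroblasts, had 21.4, 41.9, 39.9 and 40.2 CPM in the sham nerves and 43.2, 63.2, 31.9 and 49.9 CPM in the CCI nerves and did not pass (log2 fold change 0.39 with SE 0.26, adjusted p = 0.209 in edgeR). Sham 1 was the lowest of all 8 libraries for Itga11. Itga10, a collagen receptor subunit of cartilage, was at 1.44 ± 0.341 CPM in the sham nerves and 1.48 ± 0.593 CPM in the CCI nerves (SD, n = 4 per group; log2 fold change 0.04 with SE 0.33, adjusted p = 0.926 in edgeR).

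Among the receptors for fibronectin and other RGD ligands, Itga5 and Itgb3 rose, and the alpha-v gene was called slightly lower, a call that depended on single libraries and on scaling. Itga5, the alpha subunit of the main fibronectin receptor, was at 44.99, 54.1, 55.5 and 51.6 CPM in the sham nerves and 197, 197, 169.9 and 169.5 CPM in the CCI nerves. All injured libraries lay far above the highest sham library, and the fitted rise was 3.56-fold (log2 fold change 1.83 with SE 0.09, adjusted p = 3.04e-08 in edgeR). The log2 ratio of Itga5 to Itga6 in FPKM went from -4.99, -4.39, -4.41 and -4.65 in sham to -0.77, -0.83, -1.45 and -0.99 in CCI, as follows from the rise of one and the fall of the other. Itga6 remained the more abundant of this pair per length in every library.

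Itgav, the alpha-v subunit that pairs with several beta subunits, was at 607, 439.9, 560.3 and 543 CPM in the sham nerves and 416, 428, 505 and 414 CPM in the CCI nerves, with overlap (log2 fold change -0.29 with SE 0.11, adjusted p = 0.0325 in edgeR). Its call was lost with library totals only or in FPKM (log2 fold change -0.06 in each), and without CCI 1, 2 or 4 or sham 1, 3 or 4 (edgeR adjusted p = 0.0526 to 0.0890; range over all alternatives 0.00491 to 0.675). Itgb3, the beta subunit of platelets, osteoclasts and macrophages, was at 17.1, 14.6, 20.5 and 19.8 CPM in the sham nerves and 43.6, 38.2, 36.6 and 31.96 CPM in the CCI nerves, all of them above sham (log2 fold change 1.06 with SE 0.13, adjusted p = 2.30e-05 in edgeR). Itgb8, an alpha-v partner that activates latent TGF-beta, was at 404, 325, 405 and 353 CPM in the sham nerves and 323, 331, 583 and 458 CPM in the CCI nerves and did not pass (log2 fold change 0.19 with SE 0.19, adjusted p = 0.386 in edgeR). Its CCI values ranged from the lowest to the highest of all 8 libraries, CCI 3 being the highest. Itgb5, another alpha-v partner, was at 180.4 ± 12.2 CPM in the sham nerves and 182 ± 9.77 CPM in the CCI nerves (SD, n = 4 per group; log2 fold change 0.01 with SE 0.07, adjusted p = 0.898 in edgeR), and was called higher with library totals only (log2 fold change 0.24).

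Itga8, an alpha subunit of smooth muscle and kidney, was at 15.98 ± 3.31 CPM in the sham nerves and 18.4 ± 2.44 CPM in the CCI nerves (SD, n = 4 per group) and did not pass (log2 fold change 0.20 with SE 0.15, adjusted p = 0.265 in edgeR), although it did with library totals only (log2 fold change 0.43). Itga2b, the platelet and megakaryocyte alpha subunit, was at 9.22, 7.298, 4.601 and 12.4 CPM in the sham nerves and 5.59, 3.87, 5.61 and 3.86 CPM in the CCI nerves (log2 fold change -0.83 with SE 0.28, adjusted p = 0.0243 in edgeR). The ranges overlapped, and its call was lost without CCI 2, CCI 4, sham 1 or sham 4, without CCI 2 and sham 2, and with library totals only (edgeR adjusted p = 0.0559 to 0.0827), and in FPKM (range over all alternatives 0.00296 to 0.174). Summed platelet markers lay at 23.6 to 38.4 CPM in sham and 60.8 to 95.6 CPM in CCI, with Gp1bb at 0 counts in all libraries and Pf4, which macrophages can also express, as the most abundant. Of 7 tested platelet markers, 2 rose and 3 fell (71.4% called, beside 68.4% of all tested genes), and their part was not tested. Itgb6, an epithelial alpha-v partner, was at 0.1798, 0.447, 0.139 and 0.265 CPM in the sham nerves and 0.293, 6.51, 1.13 and 1.41 CPM in the CCI nerves (log2 fold change 3.16 with SE 0.90, adjusted p = 0.0115 in edgeR). CCI 2, also the library with the highest skeletal muscle sum, was the highest, and without it the log2 fold change was 1.82 (edgeR adjusted p = 0.0238; range over all alternatives 5.50e-05 to 0.127). The call was lost in limma-voom with sample weights (adjusted p = 0.0798) and in limma on log2(FPKM + 1), where the difference was 0.42, and was 1.52 on log2(FPKM + 0.1).

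Itga4, Itga9, Itgae and Itgb7 all rose. Itga4, whose product binds Vcam1 and fibronectin on migrating leukocytes, was at 23.2, 16.6, 23.7 and 22.6 CPM in the sham nerves and 74.99, 71.2, 79.7 and 65.2 CPM in the CCI nerves, 3.38-fold higher without overlap (log2 fold change 1.76 with SE 0.12, adjusted p = 2.82e-07 in edgeR). Itgb7, a partner of the Itga4 and Itgae products on lymphocytes, was at 4.78, 3.86, 4.28 and 5.95 CPM in the sham nerves and 25.00, 18.01, 16.1 and 18.2 CPM in the CCI nerves (log2 fold change 2.03 with SE 0.17, adjusted p = 1.91e-06 in edgeR). Itgae, the alpha subunit of lymphocytes that reside in epithelia, was at 5.01, 4.43, 5.11 and 4.76 CPM in the sham nerves and 11.9, 12.3, 10.1 and 13.4 CPM in the CCI nerves (log2 fold change 1.30 with SE 0.12, adjusted p = 3.63e-06 in edgeR). The smallest rise was that of Itga9, a receptor subunit for tenascin-C, with 36.6, 39.8, 41.7 and 35.7 CPM in the sham nerves and 52.8, 61.6, 47.5 and 56.5 CPM in the CCI nerves (log2 fold change 0.51 with SE 0.09, adjusted p = 0.000464 in edgeR). None of these 4 genes overlapped between groups, beside 64.8% of all tested genes without overlap. Of all tested genes, 36.2% were called higher.

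All 5 genes of the beta2 integrins of leukocytes rose, and Itgax, Itgb2, Itgal and Itgam had the 4 largest log2 fold changes of the 37 genes. Itgb2, the shared beta subunit, was at 10.5, 8.88, 13.97 and 15.3 CPM in the sham nerves and 249.8, 231, 262 and 217 CPM in the CCI nerves, 19.7-fold higher (log2 fold change 4.30 with SE 0.18, adjusted p = 4.09e-08 in edgeR). Itgal, the alpha subunit with which lymphocytes and myeloid cells bind Icam1, was at 6.01, 3.98, 6.55 and 8.05 CPM in the sham nerves and 127, 113, 127 and 108 CPM in the CCI nerves, 19.3-fold higher (log2 fold change 4.27 with SE 0.19, adjusted p = 7.77e-08 in edgeR). For both subunits the sham and CCI libraries lay far apart. Itgam, the alpha subunit of the complement receptor of macrophages and neutrophils (CD11b), was at 10.7, 9.98, 14.7 and 12.1 CPM in the sham nerves and 179, 146, 178 and 146 CPM in the CCI nerves (log2 fold change 3.77 with SE 0.14, adjusted p = 1.05e-08 in edgeR). Itgax, the alpha subunit of dendritic cells and some macrophages (CD11c), was at 3.01, 1.32, 1.301 and 3.18 CPM in the sham nerves and 33.3, 41.2, 61.6 and 37.4 CPM in the CCI nerves (log2 fold change 4.30 with SE 0.37, adjusted p = 1.33e-05 in edgeR). Itgad, a subunit related to both of these, was scarce, with 0.334, 0.165, 0.372 and 0.6395 CPM in the sham nerves and 3.26, 1.88, 3.43 and 2.39 CPM in the CCI nerves (log2 fold change 2.85 with SE 0.40, adjusted p = 8.94e-05 in edgeR). All 5 were higher without overlap, beside 36.2% of all tested genes called higher and 64.8% without overlap in either direction. In limma on log2(FPKM + 1) the difference was 0.50 for Itgad and 2.80 for Itgax, and on log2(FPKM + 0.1) it was 1.91 for Itgad. Itgam, Itgax and Itgad are related in sequence and lie within 2 places of each other in RefSeq gene order, and the sources used here do not say how reads shared by related genes were counted.

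Macrophage markers summed to 641 to 988 CPM in sham and 2383 to 2711 CPM in CCI, neutrophil markers to 2.68 to 6.62 CPM in sham and 86.8 to 224 CPM in CCI, and T and NK cell markers to 67.96 to 103 CPM in sham and 283 to 382 CPM in CCI. The test called 11 of 12, 7 of 9 and all 11 of these markers higher, beside 36.2% of all tested genes. No marker was at 0 in all libraries of a group. Most of the T and NK cell sum was Cd4, which rat macrophages also express, and without it that sum was 5.47 to 7.39 CPM in sham and 66.9 to 98.1 CPM in CCI. Their part in the rise of the beta2 integrin genes was not tested. The Itgax to Itgam log2 ratio in FPKM was -2.24, -3.32, -3.90 and -2.33 in sham and -2.83, -2.23, -1.93 and -2.37 in CCI. The difference of 0.61 was within the spread of the sham libraries (exact two-sided permutation p = 0.257, the same after adjustment over the 7 pairs).

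The promoter windows of Itgam and Itgax, which rose together, are shown with the same 4 motifs in capitals, on either strand.
Itgam (GRCr8 chr1:192089342-192089641, + strand): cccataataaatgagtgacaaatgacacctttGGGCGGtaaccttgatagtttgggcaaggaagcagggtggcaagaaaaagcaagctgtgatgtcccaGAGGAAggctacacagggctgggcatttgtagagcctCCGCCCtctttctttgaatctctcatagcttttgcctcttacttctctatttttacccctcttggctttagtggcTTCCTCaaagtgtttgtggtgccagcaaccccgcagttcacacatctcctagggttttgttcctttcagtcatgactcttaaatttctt
Itgax (GRCr8 chr1:192149799-192150098, + strand): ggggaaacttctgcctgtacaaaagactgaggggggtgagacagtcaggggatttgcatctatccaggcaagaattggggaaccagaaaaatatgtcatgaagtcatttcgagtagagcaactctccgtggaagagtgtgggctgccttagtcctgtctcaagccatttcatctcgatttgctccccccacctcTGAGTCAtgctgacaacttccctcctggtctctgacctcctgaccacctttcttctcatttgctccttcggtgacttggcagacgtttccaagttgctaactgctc
The Itgam window held 2 PU.1 cores, beginning 151 and 39 bases before the annotated start, and 2 GC boxes. PU.1 is a transcription factor of myeloid cells. A PU.1 core was in 27.6% of all 33469 windows and in those of 12 of the 28 laminin and integrin genes with an entry. The Itgax window held no GAGGAA and had an AP-1 site, as 7.33% of windows do, beginning 56 bases before the start.

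Genes that link integrins to the cytoskeleton were called in both directions. Of 29 tested adaptors and kinases, 15 rose and 11 fell (median log2 fold change 0.29). The share called was 89.7%, beside 68.4% of all tested genes, which were also called in both directions (36.2% higher and 32.2% lower). Fermt3, the kindlin that activates integrins in blood cells, went from 9.23 ± 0.724 CPM in sham to 64.9 ± 5.705 CPM after CCI (log2 fold change 2.81 with SE 0.09, adjusted p = 4.57e-09 in edgeR). Lims2, a partner of the integrin-linked kinase, went from 285 ± 23.1 CPM in sham to 38.6 ± 4.56 CPM after CCI (log2 fold change -2.88 with SE 0.10, adjusted p = 6.04e-09 in edgeR; SD, n = 4 per group for both genes). The parvin genes were divided, with Parvg, the parvin of blood cells, higher by 3.88 and Parva lower by 0.66 on the log2 scale. The kindlin Fermt2, the tensins Tns1, Tns2 and Tns3, Sharpin, Pxn, Tln2, Rsu1 and Rap1a were also lower, by 0.33 to 1.79 on the log2 scale. Tln1 and Ilk did not pass.

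Ligands of integrins other than laminin were mostly higher. Of 17 tested, 10 rose and 4 fell (median log2 fold change 0.69). The share called was 82.4%, beside 68.4% of all tested genes (36.2% higher and 32.2% lower). Edil3, an RGD protein that binds alpha-v integrins, went from 0.124 ± 0.0254 CPM in sham to 9.33 ± 0.918 CPM after CCI (log2 fold change 6.21 with SE 0.20, adjusted p = 5.14e-09 in edgeR), and Tgfb1, whose latent form is bound by alpha-v integrins, from 45.1 ± 3.71 CPM in sham to 144 ± 12.3 CPM after CCI (log2 fold change 1.67 with SE 0.08, adjusted p = 3.90e-08 in edgeR; SD, n = 4 per group for both genes). Fn1, the fibronectin gene and ligand of the Itga5 and Itgb1 pair, rose 3.2-fold, and Icam1 and Vcam1, ligands of the Itgal and Itga4 products, rose 1.66- and 3.41-fold. The 4 that fell were Cdh1, the E-cadherin bound by the Itgae product, Fbln5, Vtn and Spp1, of which Spp1 overlapped between groups.

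Within the injured group, CCI 3 was the highest library for 7 of the 11 laminin genes and 13 of the 26 integrin genes, against 26.8% of all tested genes. Lama2, Lamb2, Itga6, Itga7, Itgav, Itgb4 and Itgb8 were among them, and so were Itgb1, Itga4 and the leukocyte integrin genes Itgb2, Itgax and Itgad. The same library had the highest summed Schwann cell lineage markers (1225 CPM, against 749.7, 800.0 and 979 CPM in CCI 1, 2 and 4) and repair Schwann cell markers (954 CPM, against 512, 650.2 and 758 CPM). Its summed macrophage markers were the lowest of the 4, at 2383 CPM against 2489 to 2711 CPM. So were its summed neutrophil markers, at 86.8 CPM against 109 to 224 CPM. Its summed fibroblast markers were also the lowest of the 4, which rested on Col1a1: without that gene they were 3481 CPM in CCI 3 and 3450.3 CPM in CCI 2. The part of these in its levels was not tested. Without CCI 3, each of the 26 called genes kept its call and direction, and Itga7 was added to those called lower.

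In the RefSeq annotation, 6 of the 37 genes share ground with another protein-coding gene: Itga1 with Pelo, Itga4 with Cerkl, Itga7 with Mettl7b, Itgae with Haspin, Itgb7 with Znf740 and Itgb1 with an unnamed gene. The sources used here do not give the strand setting of the counting, so reads of such neighbours cannot be told apart and the values of these 6 are uncertain to that extent.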

How the data were processed

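The authors deposited raw gene counts and FPKM for the same 8 libraries. The submitters' processing notes name fastp, HISAT2, HTSeq, DESeq2 and R 3.2.0, without their roles, and the build Rnor_6.0. Annotation, strand setting and filters: not given in the sources used here. The deposited FPKM are counts divided by gene length and library total, with no correction for a change in library make-up.

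Counts were tested with edgeR 4.0.16 in R 4.3.3: filterByExpr, TMM scaling, the quasi-likelihood test of the 4 CCI against the 4 sham libraries, and Benjamini-Hochberg adjustment over all 15763 tested genes, with a threshold of 0.05. The SE of a log2 fold change is the coefficient over the square root of its F value, an approximation. The fits were tested on simulated data. Alternatives used DESeq2 1.42.0, limma 3.58.1 (voom, and log2(FPKM + 1) or log2(FPKM + 0.1)), other scalings and filters, and libraries left out. Library totals were 42541217 to 54559292, and intervals and limits from counts cover counting error only. Ratios of 2 genes were tested by exact permutation.

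The members and lists were chosen with earlier results of these data known. A few genes counted here are not reported by name. Values per library are given for the named laminin chains and, in each role, for at least the 2 genes with the highest mean and the 2 with the smallest p. Of the accompanying lists, the 2 genes with the smallest p and those called against most of the list are named where reported; Dag1, Dtna, Nid1, Hspg2, Col4a4, Col4a5, Parvg, Tln1, Ilk, Fn1, Icam1 and Vcam1 were added after their values were seen. Lamb4 was not analysed here. Symbols were matched to RefSeq (GRCr8) for 37 of 37 genes, and that annotation served only for neighbours and promoter windows, which 28 of the 37 had.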

Additional observations from a re-analysis of the deposited data

Results flagged for a closer look

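In 6 of the 72 groups of 4 libraries examined (36 genes, CCI and sham), 1 library stood far from the other 3. Chance alone flags about 5% of such groups. For Itga6, CCI 3 was at 649.7 CPM and the other CCI libraries at 469.6 to 492 CPM. For Itgav, CCI 3 was at 504.6 CPM, above the 414 to 428 CPM of the others. For Itgb1, CCI 4 was at 757.9 CPM, below the other 3 CCI libraries at 799.8 to 807 CPM. For Lamb2, sham 2 was at 1359 CPM, above 973 to 1036 CPM in the other sham libraries. For Itga4, sham 2 was low, at 16.6 CPM against 22.6 to 23.7 CPM. For Itga11, sham 1 was low, at 21.4 CPM against 39.9 to 41.9 CPM.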

How the results depend on the processing

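Of the 37 genes, 22 kept their direction and their side of the threshold in all of up to 20 alternatives. Laminin genes called higher numbered 2, and 4 with library totals only, 1 with at least 5 CPM in 4 libraries, and 4 in limma on log2(FPKM + 1) or log2(FPKM + 0.1). Integrin genes called lower numbered 6, and 2 with library totals only and in all 3 fits on FPKM. Basement membrane partners called higher numbered 5, and 8 in limma on FPKM with a mean of at least 0.1, 3 without CCI 2 and sham 2, and 3 to 6 with 1 library left out. Other laminin receptors called higher numbered 1 to 2 with 1 library left out. Higher calls over all genes were 52.9% of calls, and 66.9% with library totals only. The TMM factors were 1.06 to 1.10 in the CCI libraries and 0.913 to 0.936 in the sham libraries. Scaling by library totals and the fits on FPKM leave these factors out, which raises CCI relative to sham for every gene. Why the factors differed between groups, and the cause of the other shifts, was not tested.

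For every pair except Itgax to Itgam, the separation of the ratios follows from the FPKM of the genes themselves. Ratio tests with fewer libraries cannot reach the threshold: the smallest exact p is 0.0571 with 1 library left out (0.0667 adjusted), 0.1 without CCI 2 and sham 2 (0.117 adjusted) and 0.125 for the sign-flip test of same-numbered pairs. The differences on the log2 scale with this replicate block, over single libraries left out, and without CCI 2 and sham 2 were 2.25, 2.18 to 2.37 and 2.12 for Lama4 to Lama2, 1.83, 1.75 to 1.94 and 1.74 for Lama5 to Lama2, 1.00, 0.85 to 1.09 and 0.80 for Lamb1 to Lamb2, 1.48, 1.43 to 1.54 and 1.49 for Itga7 to Itga6, -3.17, -3.27 to -3.09 and -3.06 for Itgb4 to Itgb1, and 3.60, 3.47 to 3.75 and 3.61 for Itga5 to Itga6.

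Genes near 0 that changed sign passed in neither direction unless stated, and the cause was not tested. Itga10 (0.04) was at -0.054 in limma-voom, -0.018 with the replicate block and -0.30 to 0.17 with 1 library left out. Itgb5 (0.01) was at -0.022 with DESeq2 size factors, -0.0195 in the DESeq2 test, -0.0125 with no filter, -0.043 with at least 5 CPM, -0.0402 to 0.054 with 1 library left out and 0.0826 without CCI 2 and sham 2. With 1 library left out, Itgb8 was at -0.0357 to 0.27 and Lamb3 at -0.20 to 0.31. Lama5 (-0.01) was at 0.22 with library totals only, 0.0009 with upper-quartile scaling, 0.21 in each fit on FPKM, and -0.0474 to 0.0062 with 1 library left out; the totals and FPKM fits called it higher. Lamc3 (-0.0019) was at 0.23 with library totals only, 0.009 with upper-quartile scaling, 0.0378 in limma-voom, 0.0285 with the replicate block, 0.16 on log2(FPKM + 1) with and without the filter, 0.24 on log2(FPKM + 0.1), and -0.13 to 0.15 with 1 library left out.

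The sources used here do not say whether the replicate numbers pair the libraries. The deviations of same-numbered libraries from their group means correlated at 0.12, 0.29, -0.02 and 0.03, and not every library correlated best with its own number. The 0.29 was that of CCI 2 and sham 2. Deviations from a mean of 4 libraries are not independent of each other, so these values cannot decide the question. With the replicate block, 5 integrin genes were called lower in place of 6, Itga2b being lost (adjusted p = 0.0607 in edgeR).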
